A study of Homo sapiens with 6 samples.

Results

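The genes described here are 10 NF-kB feedback and inflammatory genes, taken by gene name from a table of 58735 annotated genes in PANC-1 cells: the subunit genes NFKB1, NFKB2 and RELB, the inhibitor genes NFKBIA and TNFAIP3, the chemokine genes CXCL1 and CXCL8, the cytokine genes IL6 and LIF, and the adhesion gene ICAM1. Each name matched 1 row. PANC-1 is a widely used human cell line derived from a ductal adenocarcinoma of the pancreas. RNA sequencing was carried out on 3 libraries of cells given a control siRNA (si-NC) and 3 libraries of cells given an siRNA against METTL16 (si-METTL16), to ask which transcripts shift when this RNA methyltransferase is silenced. The transfection entry of the si-NC samples reads WT, and the labels name no cytokine or other inflammatory stimulus in either group. All 6 libraries came from 1 line, and the time from transfection to harvest was not given in the sources used here. The study lists several siRNAs against METTL16, and which of them the sequenced cells received was not given in the sources used here. The labels speak of transfection with siRNA, and the study's methods call the sequenced cells stably transfected. Those methods describe puromycin selection for stable knockdown cells in general, without saying whether it applied to the sequenced ones. The study describes biological triplicates. Totals ran from 15725298 to 18054436 counts per library. FPKM are the deposited values, which are counts scaled by library total and by 1 fixed divisor per gene. That divisor was not checked against gene length.

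NF-kB is a family of dimeric transcription factors. In resting cells the dimers are held in the cytoplasm by IkB proteins such as the product of NFKBIA, and by the unprocessed precursors encoded by NFKB1 and NFKB2. When a receptor of the TNF, interleukin-1 or Toll-like families is engaged, the IKK kinases mark IkB for destruction and the dimers move to the nucleus, whereas the noncanonical arm works through NIK, IKK alpha, processing of the NFKB2 product and its partner RELB. NF-kB then induces its own inhibitors, NFKBIA and TNFAIP3 (A20, a ubiquitin-editing enzyme), which closes a negative feedback loop, together with chemokines, cytokines and adhesion molecules. In pancreatic cancer NF-kB activity is well known, and secreted CXCL8, CXCL1, IL-6 and LIF are studied as signals from tumour cells to neutrophils, fibroblasts and the tumour cells themselves.

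Most of these genes are known NF-kB targets, and their promoters show the element that such dimers bind. RefSeq promoters on GRCh38.p14, each running from 250 bases before to 50 bases after a start site, were matched for 8 of the 10 genes, with 11 start sites in all. RELB and LIF were not matched. The kappa B consensus, the element bound by NF-kB dimers, was searched on both strands, and it was found for 6 of the 8 genes and in 7 of the 11 promoters. The share among all 35116 promoters of that length was 5.91%. The matches describe the set and say nothing of binding in these samples. The complete promoter of NFKBIA and the second listed promoter of NFKB2 are shown because these genes were the only 2 of the 10 whose RNA passed the test, and capitals mark the kappa B match. In the NFKB2 sequence the first stretch in capitals holds 3 overlapping matches.
NFKBIA, chr14:35404700-35404999, minus strand: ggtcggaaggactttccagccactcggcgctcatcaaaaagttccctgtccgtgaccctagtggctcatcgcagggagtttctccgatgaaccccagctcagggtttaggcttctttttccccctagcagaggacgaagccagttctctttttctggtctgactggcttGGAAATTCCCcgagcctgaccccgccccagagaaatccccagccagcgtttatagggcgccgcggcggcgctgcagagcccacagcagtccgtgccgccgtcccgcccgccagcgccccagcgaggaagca
NFKB2, chr10:102394328-102394627, plus strand: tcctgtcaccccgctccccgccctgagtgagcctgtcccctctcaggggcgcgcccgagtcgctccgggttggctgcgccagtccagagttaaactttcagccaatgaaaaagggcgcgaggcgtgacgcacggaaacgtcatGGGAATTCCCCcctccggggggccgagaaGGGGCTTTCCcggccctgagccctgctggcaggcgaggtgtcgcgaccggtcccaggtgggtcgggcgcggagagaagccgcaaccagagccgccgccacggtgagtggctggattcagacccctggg

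The windows below are stretches from the promoters of 4 other genes that carry a match, shown so that the elements can be compared with those of NFKBIA and NFKB2. NFKB1, TNFAIP3 and CXCL1 were tested and not called, and IL6 had too few counts to be tested.
NFKB1: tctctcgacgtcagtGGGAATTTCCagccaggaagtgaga
TNFAIP3: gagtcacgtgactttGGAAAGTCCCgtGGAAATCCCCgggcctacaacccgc
CXCL1: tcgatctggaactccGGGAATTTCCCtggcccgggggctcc
IL6: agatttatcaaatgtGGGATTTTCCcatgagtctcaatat

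TNFAIP3 held its pair of matches 2 bases apart, starting 67 and 55 bases before the start site. The CXCL1 stretch, which starts 79 bases before the start site, matched on both strands with an offset of 1 base. The matches of NFKB1, IL6 and NFKBIA began 49, 73 and 81 bases before the start site. No match was found in the listed promoters of CXCL8 and ICAM1, in the second of NFKB1 or in the first of NFKB2, which says only that these letters are not in those windows. The CXCL8 promoter held a match to the AP-1 motif TGANTCA, which reads the same on both strands apart from its central base, 137 bases before the start. That motif was present in 7.71% of all promoters. A promoter with a match therefore belonged both to genes whose RNA fell (NFKBIA, NFKB2) and to a gene with 1 count in all 6 libraries (IL6).

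**Figure D1:**
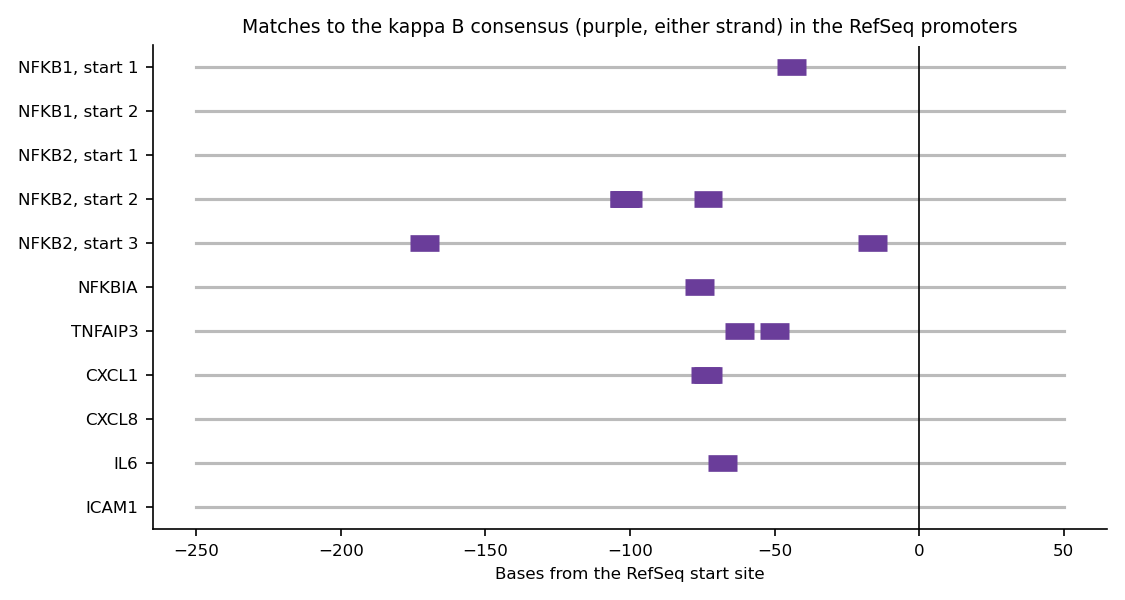
Positions of kappa B consensus matches, on either strand, in the 11 RefSeq promoters of 8 genes; the x axis gives bases from the start site and each grey line covers 250 bases before to 50 after it. Matches lie in 7 promoters, all before the start site, and none in those of CXCL8 and ICAM1.

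METTL16 (chr17:2405562-2511891), the silenced gene, was read first as a check of the labels. Its counts were 1546, 1641 and 1764 in si-NC and 571, 528 and 627 in si-METTL16, a log2 fold change of -1.48 (SE 0.07), which left 35.9% of the control level. Among all 15089 genes that passed the filter on low counts, 5418 were called at an adjusted p under 0.05, which is 35.9% of them, and 2780 of these (18.4%) were higher and 2638 (17.5%) lower after silencing. The normalised counts of the 2 groups did not overlap for 50.9% of tested genes. The libraries carried epithelial keratins (KRT8 at 151 and KRT18 at 175 FPKM on average in si-NC), while the acinar, islet and endothelial markers did not pass the filter. Of 6 ductal and epithelial markers, 3 were called lower (KRT7, KRT19 and CDH1), and the summed level of all 6 was 2860 to 3930 CPM (counts scaled to the library total with TMM factors) in si-NC and 3110 to 3400 in si-METTL16. Of 5 immune markers only CD14 was tested, and it fell by 1.00 on the log2 scale, with a summed level of 3.31 to 4.01 against 1.03 to 2.19 CPM; PTPRC had at most 5 counts in a library, and CD3E and MS4A1 had 0. Of 4 fibroblast markers only COL1A1 was tested and it was higher by 1.27, with DCN, LUM and PDGFRA at no more than 8 counts. Whether these marker shifts have a part in the results was not tested.

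Against this broad background, 9 of the 10 genes passed the filter, 2 of them fell and none was called higher. NFKBIA fell to 60.6% and NFKB2 to 68.6% of the control level. The 7 other tested genes, NFKB1, RELB, TNFAIP3, CXCL1, CXCL8, LIF and ICAM1, did not pass the threshold in either direction. At an unadjusted p under 0.05 in edgeR, ICAM1 was the only 1 with a higher estimate, and no gene of the set was called higher by DESeq2 or limma. The share called, 22.2%, was below the 35.9% of all tested genes, and the share whose groups did not overlap, 3 of 9, was below 50.9%. The median log2 fold change was -0.12, against 0.00 for all tested genes. In bulk RNA a change of this kind cannot be told apart from a change in the share of cells that make the transcript.

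**Figure D2:**
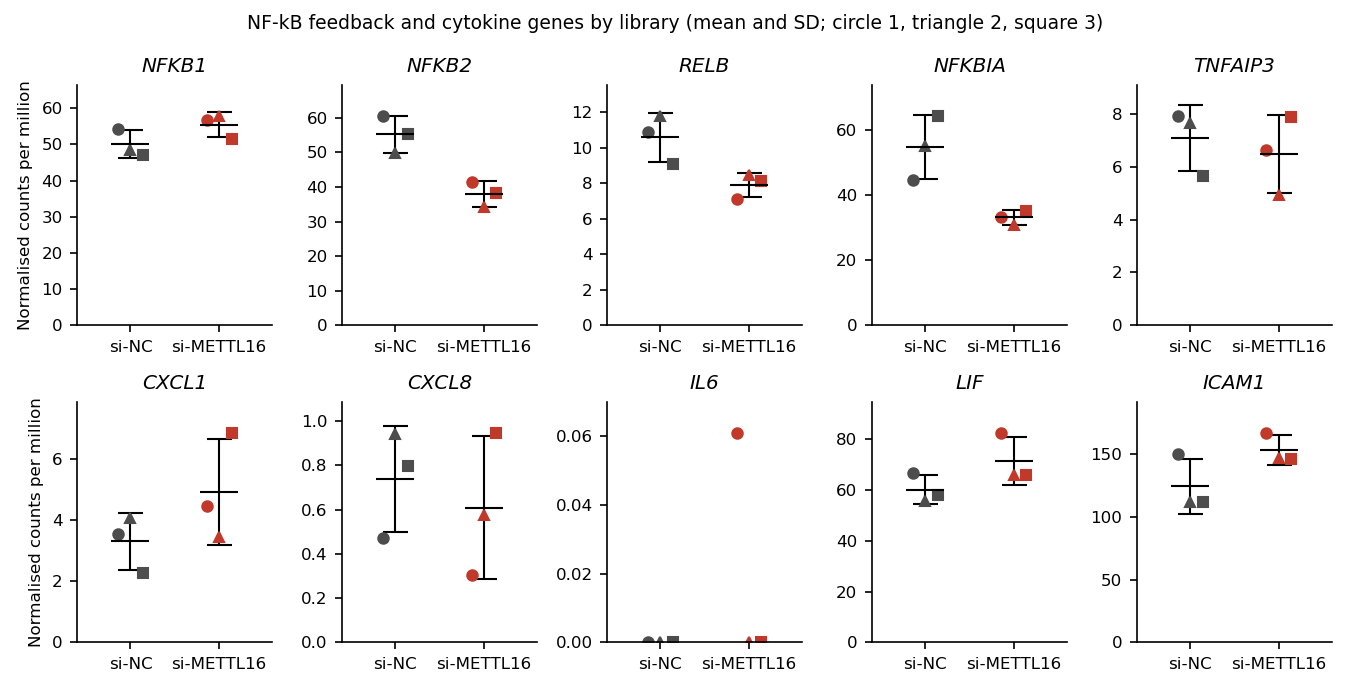
Normalised CPM in the 3 si-NC (dark) and 3 si-METTL16 (red) libraries for each of the 10 genes, with the mean and SD (no mean or SD for IL6); each y axis starts at 0 and has its own scale. The 2 groups are separate for NFKB2, RELB and NFKBIA and overlap for NFKB1, TNFAIP3, CXCL1, CXCL8, LIF and ICAM1; the only IL6 count is in si-METTL16 replicate 1.

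**Figure D3:**
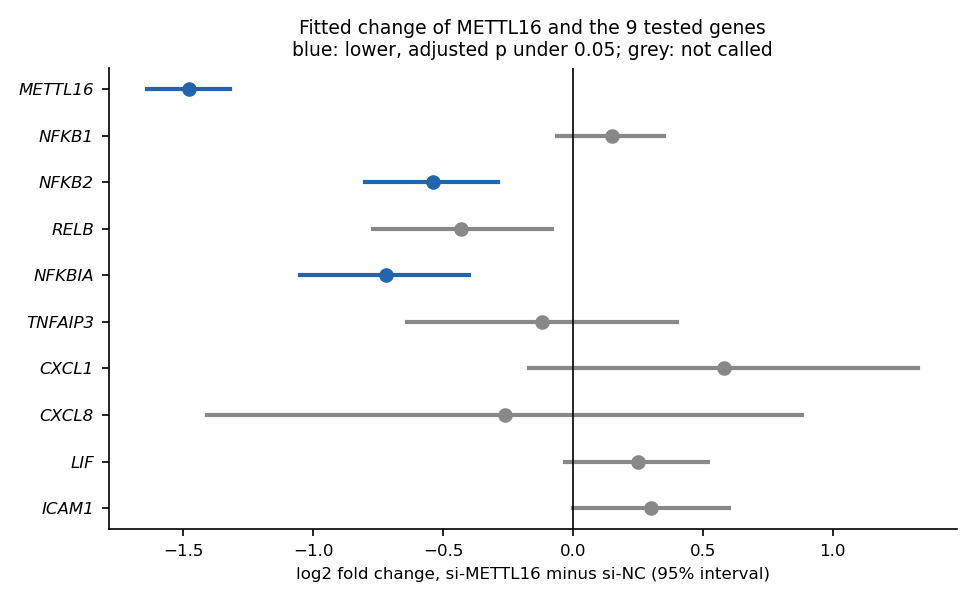
Fitted log2 fold change (si-METTL16 minus si-NC, points) with its 95% interval (lines) for METTL16 and the 9 tested genes. Only METTL16, NFKB2 and NFKBIA are called, all lower, and the interval is widest for CXCL8, which had 69 counts in total.

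The levels of the genes differed widely. On the deposited FPKM scale, ICAM1 stood highest in si-NC at 22.8 ± 4.01 (SD, n = 3). It was followed by LIF at 13.3 ± 1.28, NFKB2 at 8.78 ± 0.847, NFKBIA at 7.87 ± 1.42 and NFKB1 at 4.88 ± 0.372. The order between genes holds for this scale only, because its divisors were not checked against gene length. The lower part of the order was CXCL1 at 2.15 ± 0.596, RELB at 1.55 ± 0.205, TNFAIP3 at 0.567 ± 0.0995, CXCL8 at 0.259 ± 0.0844 and IL6, listed at 0. The ranges of NFKB2 and NFKBIA overlapped, as did those of CXCL1 and RELB, so the order within these pairs is not settled by the si-NC libraries. The median tested gene stood at 2.99 FPKM in si-NC, so 5 of the 10 genes were above it. In si-METTL16 the order changed in the middle only: NFKB1 (5.32 ± 0.313) moved to a place between NFKB2 (5.93 ± 0.555) and NFKBIA (4.69 ± 0.312), with the ranges of each neighbouring pair overlapping. The lowest si-METTL16 library for NFKBIA, at 4.38 FPKM, also lay just below the highest for CXCL1, at 4.40.

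The 3 subunit genes did not move together. NFKB2 (ENSG00000077150, chr10:102394110-102402529 in the deposited table), which encodes the p100 precursor and p52, had 60.6, 49.9 and 55.5 normalised CPM in si-NC and 41.4, 34.1 and 38.4 in si-METTL16. Every silenced library lay below every control library. The log2 fold change was -0.54 (SE 0.11, adjusted p = 0.00761), and it stayed between -0.62 and -0.47 under all alternatives, with the highest adjusted p at 0.0264.

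RELB (ENSG00000104856, chr19:45001430-45038198), the usual partner of p52, had 10.9, 11.8 and 9.07 normalised CPM in si-NC and 7.13, 8.46 and 8.12 in si-METTL16. The groups did not overlap, but the estimate of -0.43 (95% interval -0.77 to -0.08) missed the threshold with an adjusted p of 0.0592 in edgeR. Without si-NC replicate 3 the estimate was -0.53 and it was called (adjusted p = 0.0429), whereas leaving out any other library gave adjusted p-values of 0.0832 to 0.156.

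NFKB1 (ENSG00000109320, chr4:102501329-102617302), which encodes p105 and p50, had 54.4, 48.6 and 47.2 normalised CPM in si-NC and 56.9, 57.9 and 51.5 in si-METTL16. The highest control library exceeded the lowest silenced one, and the 95% interval of the log2 fold change ran from -0.06 to 0.35. The gene had 824 to 934 counts per library. RELA, the main transactivating subunit, had a log2 fold change of -0.03 (SE 0.06), and REL had 0.45 (SE 0.33), and neither was called.

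Of the inhibitors, NFKBIA (ENSG00000100906, chr14:35401511-35404749), the IkB alpha gene, changed and TNFAIP3 did not pass the test. NFKBIA had 44.6, 54.9 and 64.2 normalised CPM in si-NC against 33.2, 30.8 and 35.1 in si-METTL16, so the lowest control library was above the highest silenced one. The log2 fold change was -0.72 (SE 0.14, adjusted p = 0.00662), and under all alternatives it lay between -0.85 and -0.59 with a highest adjusted p of 0.0266. The control libraries varied more, at 54.6 ± 9.81 CPM (SD, n = 3) against 33.1 ± 2.14 in the silenced libraries.

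TNFAIP3 (ENSG00000118503, chr6:137867188-137883312), which encodes A20, had 7.93, 7.66 and 5.65 normalised CPM in si-NC and 6.64, 4.94 and 7.90 in si-METTL16. The 2 groups overlapped almost fully, and the 95% interval of the log2 fold change was -0.64 to 0.40. The sign of the estimate, -0.12, turned to 0.04 without si-METTL16 replicate 2. The difference between the changes of NFKBIA and TNFAIP3 was not tested.

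NFKBIA belongs to a family whose other members moved in both directions. NFKBIB, which encodes IkB beta, had 1008, 1040 and 1120 counts in si-NC and 2641, 2370 and 2409 in si-METTL16, and its log2 fold change of 1.27 (SE 0.08) was called, with an adjusted p of 0.00013 in edgeR. NFKBIE, the IkB epsilon gene, fell by 0.71 (SE 0.19) and NFKBIZ, an atypical nuclear IkB gene, rose by 1.02 (SE 0.32). These last calls were less secure: both NFKBIE and NFKBIZ lost the call without si-NC replicate 3 or without any 1 of the 3 si-METTL16 libraries, when their adjusted p-values lay between 0.0529 and 0.0746 and between 0.078 and 0.113.

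On the deposited FPKM scale the ratio of NFKBIA to NFKBIB was 0.53, 0.635 and 0.712 in si-NC and 0.146, 0.144 and 0.186 in si-METTL16. NFKBIB thus had the higher deposited FPKM of the pair in every library, and by a wider margin after silencing. Which RNA was more abundant is not settled, since the FPKM divisors were not checked against gene length. In normalised CPM NFKBIA was above NFKBIB in si-NC replicate 3 alone, at 64.2 against 63.9. The FPKM ratio of NFKB2 to NFKB1 was 1.81, 1.68 and 1.92 in si-NC and 1.18, 0.96 and 1.21 in si-METTL16. On the FPKM scale NFKB2 was above NFKB1 in all control libraries and in 2 of 3 silenced ones. In normalised CPM NFKB2 lay above NFKB1 in all control libraries and below it in all silenced ones. The ratio of RELB to RELA was 0.253 ± 0.0386 in si-NC and 0.191 ± 0.0192 in si-METTL16. In each of these 3 comparisons of ratios the groups were separate. The groups of NFKBIA, NFKB2 and RELB were already separate on their own, so this is not a further result. The 2-sided exact permutation p was 0.1, raw and Benjamini-Hochberg adjusted. That is the smallest that 3 against 3 libraries allow, so the test cannot decide whether the ratios differ.

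**Figure D4:**
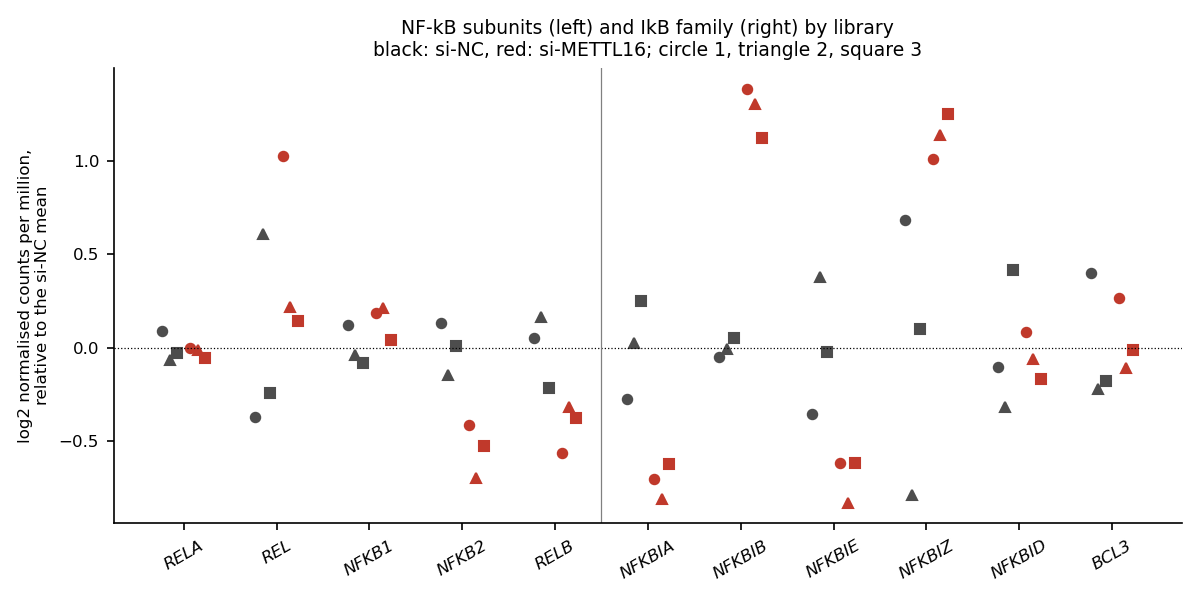
Normalised CPM on a log2 scale, relative to the mean of the si-NC libraries, for 5 NF-kB subunit genes (left) and 6 IkB family genes (right), with 1 point per library (dark si-NC, red si-METTL16). NFKB2, RELB, NFKBIA and NFKBIE sit below their control libraries, NFKBIB and NFKBIZ above, and RELA, REL, NFKB1, NFKBID and BCL3 overlap.

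Neither chemokine gene was called. CXCL1 (ENSG00000163739, chr4:73869393-73871242) encodes a neutrophil attractant that acts through CXCR2. It had 60, 69 and 40 counts in si-NC and 73, 54 and 123 in si-METTL16. The groups overlapped, and the highest library was si-METTL16 replicate 3, at 6.84 normalised CPM. The log2 fold change was 0.58 with a 95% interval of -0.17 to 1.33, and it was 0.26 without si-METTL16 replicate 3 and 0.77 without si-METTL16 replicate 2.

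CXCL8 (ENSG00000169429, chr4:73740506-73743716) encodes interleukin-8. It had 8, 16 and 14 counts in si-NC and 5, 9 and 17 in si-METTL16. The highest and the lowest libraries were both si-METTL16 libraries, and the 95% interval of -1.41 to 0.88 includes a fall or a rise of considerable size. At this depth no difference was detectable, and the estimate of -0.26 turned to 0.05 without si-METTL16 replicate 1. The neighbours of these genes in the chemokine cluster on chromosome 4 were nearly silent: CXCL2 had 17, CXCL5 14 and CXCL3 13 counts over all 6 libraries, and CXCL6, PPBP and PF4V1 had 0. CXCL1, CXCL2 and CXCL3 are near-identical copies, and the splitting of their reads is uncertain. CXCL1 itself had 419 counts in all.

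IL6 (ENSG00000136244, chr7:22725884-22732002) was not measurable. It had 0 counts of 51093700 in si-NC, which allows a level of up to 0.0587 CPM, and 1 count in si-METTL16, in replicate 1. It did not pass the filter, and no fold change is given. Interleukin-6 RNA in these cells therefore was not detectable at this depth in si-NC, and the limit covers counting error only.

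LIF and ICAM1, which had the most counts of the set, had estimates above 0 and were not called. LIF (ENSG00000128342, chr22:30240447-30246851), a cytokine of the interleukin-6 family, had 1131, 949 and 1017 counts in si-NC and 1354, 1031 and 1184 in si-METTL16. As normalised CPM these were 66.9, 55.9 and 58.0 against 82.5, 66.1 and 65.9. The highest control library lay above 2 of the 3 silenced ones, and the log2 fold change was 0.25 (95% interval -0.03 to 0.52, adjusted p = 0.142 in edgeR). Without si-METTL16 replicate 1 it was 0.13.

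ICAM1 (ENSG00000090339, chr19:10270835-10286615), a ligand of leukocyte integrins, had 2533, 1895 and 1963 counts in si-NC and 2741, 2295 and 2628 in si-METTL16. The normalised levels of si-NC replicates 2 and 3 were the lowest, and si-NC replicate 1 was within the range of the silenced libraries. The log2 fold change was 0.30 (95% interval 0.00 to 0.60, adjusted p = 0.104 in edgeR). Without si-NC replicate 1 it was 0.45 and passed the threshold (adjusted p = 0.0119). Overlapping annotated genes took few counts: 4 for the partner of TNFAIP3, at most 7 for those of LIF and at most 4 for those of ICAM1. STEAP1B, which overlaps IL6, had 127 counts in all.

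Within a group the genes did not all follow the same order of libraries. In si-NC, replicate 3 had the lowest RELB, TNFAIP3 and CXCL1 levels and the highest NFKBIA level. On the log2 scale these lay -0.21, -0.29, -0.42 and 0.25 from the group mean. In si-METTL16, replicate 3 had the highest TNFAIP3, CXCL1 and CXCL8 levels, 0.29, 0.49 and 0.42 above the mean, and replicate 2 the lowest of TNFAIP3 and CXCL1, at -0.34 and -0.40. NFKB2, LIF and ICAM1 were highest in replicate 1 of both groups, and for NFKB2 the deviations of replicates 1 to 3 were 0.13, -0.14 and 0.01 in si-NC and 0.13, -0.15 and 0.02 in si-METTL16. For METTL16 itself the deviations stayed between -0.07 and 0.06. In si-METTL16 the tested genes with the fewest counts had the widest spread. The coefficient of variation there was 52.8% for CXCL8, 35.3% for CXCL1 and 22.9% for TNFAIP3, against 6.20% for NFKB1 and 7.67% for ICAM1. In si-NC it was again highest for CXCL8 (32.6%) and CXCL1 (27.8%). TNFAIP3, at 17.6% in si-NC, was no wider than NFKBIA (18%) or ICAM1 (17.7%).

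The transcripts of several of these genes also carry AU-rich elements, short runs in the 3′ untranslated region through which proteins such as tristetraprolin (ZFP36) speed up decay. The nonamer TTATTTATT was found in the 3′ untranslated region of the MANE Select transcript (GENCODE v44) of TNFAIP3, CXCL1, CXCL8 and LIF, with 1, 3, 1 and 2 copies, and in 8.6% of the 18780 regions searched. It was not found for NFKB1, NFKB2, RELB, NFKBIA, IL6 and ICAM1. The pentamer ATTTA, which lies within the nonamer, had 9 copies in CXCL8, 7 in LIF, 6 each in CXCL1 and IL6, and 0 in RELB, and 68.3% of all regions had at least 1. The first nonamer of each transcript is shown in capitals with its flanks, to set the element beside its neighbours in the 4 genes that share it.
TNFAIP3: gtaattcactTTATTTATTttattacaaa
CXCL1: agtcttctatTTATTTATTtattcattag
CXCL8: atgtaaagtaTTATTTATTtgaatctaca
LIF: ctccgggcccTTATTTATTatttaaacat

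METTL16 is known to methylate an adenosine within the nonamer TACAGAGAA of hairpins in MAT2A RNA. That nonamer was present once in the TNFAIP3 transcript, in none of the other 9, and 5 times in the MAT2A transcript. It was found in 3.43% of the 19061 MANE Select transcripts searched. A match in the sequence alone does not show a methylated site. The RNA of 12 genes for mRNA decay and stability factors was read as a list. Most of these factors bind AU-rich elements, while the roquins (RC3H1, RC3H2) and regnase-1 (ZC3H12A) act on stem-loops. All were tested, and 3 were called higher and 3 lower (50% called, against 35.9% of all tested genes), with a median log2 fold change of 0.04. ZFP36L1 fell by 0.64 (SE 0.14) and RC3H2, a roquin gene, by 0.59 (SE 0.06), while ZFP36L2 rose by 0.43 (SE 0.09). ZFP36 had 1053, 1051 and 3031 counts in si-NC and 1274, 3460 and 3898 in si-METTL16, with a log2 fold change of 0.80 (SE 0.52) that was not called. Each group held libraries near both ends of that range.

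The rest of the pathway was read from lists of related genes. Of the 13 other genes for NF-kB subunits, IkB proteins and IKK kinases, all tested, 2 were higher and 2 lower (30.8% called, against 35.9% of all tested genes), with a median of -0.03. The called genes were NFKBIB, NFKBIZ and NFKBIE, described above, and CHUK, which encodes IKK alpha of both arms and fell by 0.54 (SE 0.07). TBK1 had the highest FPKM of those not called, with a log2 fold change of -0.04 (SE 0.07). MAP3K14, which encodes NIK, had -0.01 (SE 0.11). In this list the count of higher genes was 1 in place of 2, and that of lower genes 1 in place of 2, without si-NC replicate 3 or any 1 si-METTL16 library.

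Among 27 adaptors, kinases and ubiquitin enzymes, 26 were tested, and 5 were higher and 8 lower (50% called, against 35.9% of all tested genes), with a median of -0.17. BIRC3, which encodes the ubiquitin ligase cIAP2 and is a known NF-kB target, had 2840, 2833 and 2909 counts in si-NC and 750, 1000 and 1082 in si-METTL16, a fall of 1.56 on the log2 scale (SE 0.12). RBCK1 and RNF31, which encode HOIL-1 and HOIP of the linear ubiquitin complex, fell by 0.92 (SE 0.15) and 0.59 (SE 0.12). OTULIN and CYLD, which remove linear and lysine-63 ubiquitin chains, fell by 0.41 each, and TNIP1, an A20-binding protein, by 0.49. TRAF3, a brake on NIK, rose by 0.64 (SE 0.14), and RNF11, with the highest FPKM of those not called, had 0.68 (SE 0.30). RNF31, OTULIN, CYLD and TNIP1 were added to the named genes after their values were seen, as was CHUK. The count of 5 higher genes dropped to 2 without si-NC replicate 2 and to 3 without si-NC replicate 3 or any 1 si-METTL16 library.

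Of 13 receptors upstream of NF-kB, 11 were tested, with 3 higher and 3 lower (54.5% called, against 35.9% of all tested genes) and a median of -0.26. TNFRSF1B, the TNF receptor 2 gene, had 324, 377 and 292 counts in si-NC and 78, 79 and 134 in si-METTL16, a fall of 1.74 (SE 0.20). TNFRSF12A, the receptor for TWEAK, went the other way, from 1071, 661 and 1058 counts to 2511, 2133 and 2497, a rise of 1.40 (SE 0.18). TNFRSF11A, the RANK gene, fell by 0.69 (SE 0.17) but lost the call, with adjusted p-values of 0.053 to 0.0571, without si-NC replicate 3, si-METTL16 replicate 1 or si-METTL16 replicate 3. CD40 had -0.59 (SE 0.19) and was not called. The 3 higher genes became 1 without si-NC replicate 1 or 2 or any 1 si-METTL16 library.

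Of 28 other cytokine and chemokine genes only 11 passed the filter on low counts, 4 of them fell and none was called higher, with a median of -0.29. The share called was 36.4%, near the 35.9% of all tested genes called in either direction. All of these calls were lower, against 17.5% of all tested genes called lower. The 17 others had at most 9 counts in any library, and IL1B, CXCL10, CSF2 and CSF3 were among the 6 with 0 throughout. TNFSF15 fell by 1.32 (SE 0.19), CXCL16 by 1.16 (SE 0.15) and CCL2, a monocyte attractant, by 0.82 (SE 0.19). The fourth was CSF1, which fell by 0.52 (SE 0.10) and was named after its value was seen. IL18 had the highest FPKM of those not called and a log2 fold change of -0.29 (SE 0.14). At an unadjusted p under 0.05 no gene of this list had a higher estimate, and edgeR, DESeq2 and limma on voom values called 0 higher.

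Of 26 other NF-kB target genes 18 were tested, and 8 were higher and 4 lower, with a median of 0.32. The share called was 66.7%, against 35.9% of all tested genes. The genes that rose include BCL2A1, an anti-apoptotic gene (1.54, SE 0.25), and SOD2, the mitochondrial superoxide dismutase gene (1.39, SE 0.30), read from the more abundant of its 2 rows. SOD2 had 663, 789 and 946 counts in si-NC and 2413, 2367 and 1199 in si-METTL16, with replicate 3 the lowest of the silenced libraries and still above all control libraries. PTGES, which makes prostaglandin E2, fell by 1.52 (SE 0.09). IER3 was abundant and had a log2 fold change of 0.05 (SE 0.05). The count of 4 lower genes was 2 without si-NC replicate 1 or 2 or si-METTL16 replicate 1. NFKBIA and NFKB2 thus fell among target genes that were called in both directions.

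The receptors and signal carriers for the secreted proteins and ICAM1 comprised 14 genes, of which 11 were tested, 5 were higher and 2 lower (63.6% called, against 35.9% of all tested genes), with a median of 0.25. OSMR had 2840, 2557 and 2862 counts in si-NC and 5350, 4481 and 5578 in si-METTL16, a rise of 0.94 (SE 0.07). It encodes a receptor subunit for oncostatin M, of the interleukin-6 family, and not for IL-6 or LIF. IL6R, the IL-6 receptor gene, was called lower (-0.53, SE 0.08), and LIFR, the LIF receptor gene, was called higher (0.28, SE 0.07). IL6R and LIFR were named after their values were seen. STAT3, which carries signals from IL-6 and LIF receptors, rose by 0.72 (SE 0.06). IL6ST, the shared gp130 subunit, had a log2 fold change of 0.02 (SE 0.06) and was not called. ITGB2, a leukocyte integrin chain, fell by 0.71 (SE 0.21) at 32 to 65 counts per library, and this call was lost without any 1 library other than si-METTL16 replicate 2, leaving 1 lower gene. The receptors of CXCL1 and CXCL8 were near 0, with 3 counts at most for CXCR2 and 1 for CXCR1 in a library.

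Interferon response genes were read beside these, since RNA sensors and TBK1 act upstream of both programmes. Of 12 genes in this list 8 were tested, 7 fell and none was called higher, with a median of -0.74. The share called, all of it lower, was 87.5%, against 17.5% of all tested genes called lower and 35.9% called in either direction. No higher estimate was seen at an unadjusted p under 0.05 either, and edgeR, DESeq2 and limma on voom values called 0 higher. IFIT2 fell by 1.39 (SE 0.09), IFIT3 by 1.14 (SE 0.14) and IFIH1, which encodes the RNA sensor MDA5, by 0.97 (SE 0.13), whereas OAS1 had -0.84 (SE 0.29) and was not called. IFNB1 had 0 counts in all libraries. IRF1, which interferon also induces, was counted among the other NF-kB target genes and was called higher, by 0.58 (SE 0.15). The fall therefore describes this list and not every gene that interferon induces. Across the 8 lists, 59 of 110 tested genes were called (53.6%, against 35.9% of all tested genes), 26 higher and 33 lower, with a median log2 fold change of -0.11. The lists were chosen with earlier results of these data known. Neither the pooled share nor that of the interferon list is therefore an independent result. Of the 24 called genes named by rule from the lists, 20 were called whichever library was left out, and the other 4 were NFKBIZ, NFKBIE, TNFRSF11A and ITGB2.

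**Figure D5:**
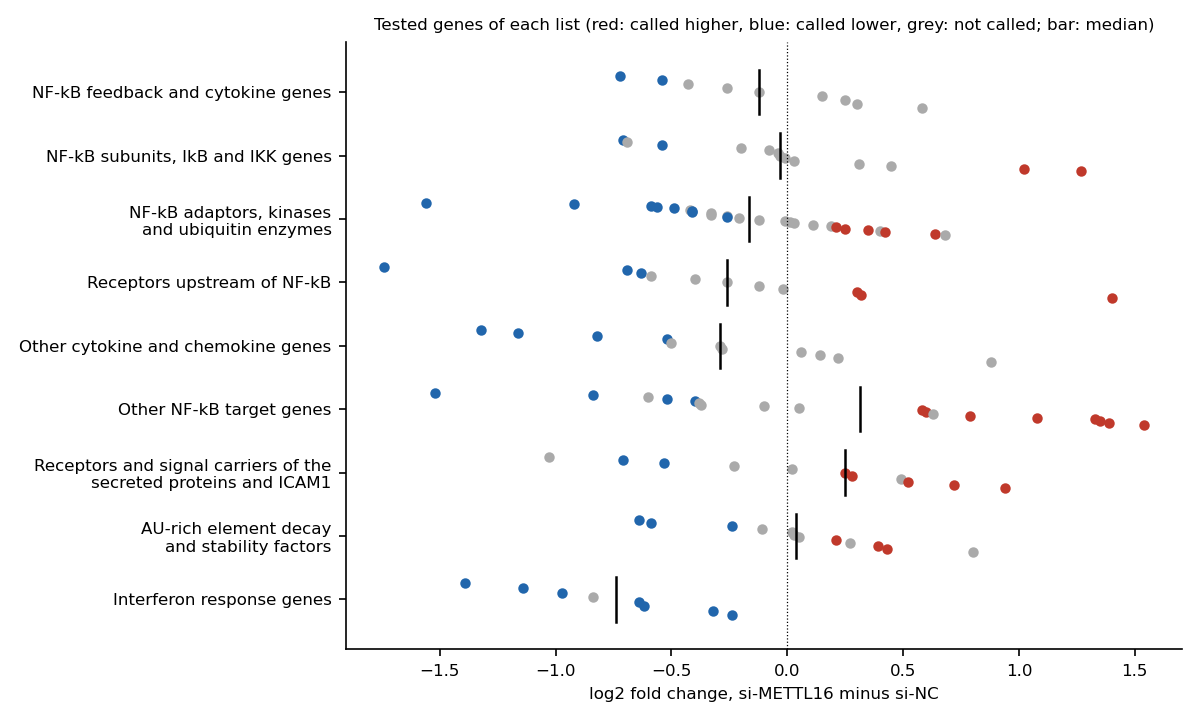
Log2 fold change (si-METTL16 minus si-NC, x axis) of each tested gene in the set of 10 and in 8 lists, with 1 point per gene, red for called higher, blue for called lower and grey for not called, and a bar at the median. The interferon response genes lie below 0 (median -0.74), the other NF-kB target genes spread to both sides (median 0.32), and the set of 10 is centred at -0.12.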

How the data were processed

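PANC-1 RNA was sequenced in 3 si-NC and 3 si-METTL16 libraries. The authors deposited raw counts and FPKM per gene. The submitters' processing notes name HISAT2 2.0.4, StringTie 1.3.0 and GRCh38 (hg38); strand was not given in the sources used here. The deposited FPKM scaled with counts over library total, with 1 fixed divisor per gene. The largest spread of that divisor was 0.00183% over 11547 genes with at least 50 counts in every sample. It was not compared with gene length, and for NFKBIA it exceeds the annotated span of the gene. Totals are given in the report, and intervals cover the spread between libraries.

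Counts were tested with edgeR 4.0.16 (R 4.3.3) by filterByExpr, TMM and the quasi-likelihood test, with Benjamini-Hochberg adjustment over 15089 genes and a threshold of 0.05. The study names limma, which was run as an alternative (limma 3.58.1), as was DESeq2 1.42.0. Normalised CPM use TMM-scaled totals. The procedure was tested on simulated data. The genes and lists were chosen with earlier results of these data known. Named were the 10 genes, METTL16 and the markers, then from each list up to 3 called genes with the largest absolute change and the gene with the highest FPKM among those not called; other list genes in the text were named after their values were seen. Alternatives were a replicate block, each library left out, other filters and normalisations, other tests, FPKM with 2 pseudocounts (mean FPKM of at least 1) and a threshold of 0.01. Where nothing says that samples came from separate cultures, p-values measure the spread between these samples. No counts of 2 libraries agreed within sampling noise.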

Additional observations from a re-analysis of the deposited data

How the results depend on the processing

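NFKB2, NFKBIA and METTL16 were called lower under every alternative run. The estimates of 2 genes turned sign without 1 library: TNFAIP3 to 0.04 without si-METTL16 replicate 2 and CXCL8 to 0.05 without si-METTL16 replicate 1. RELB passed the threshold without si-NC replicate 3 (-0.53), ICAM1 without si-NC replicate 1 (0.45). TNFAIP3 and CXCL8 are absent from the FPKM fits, CXCL8 also from the fit with at least 10 counts in every sample. Leaving out 1 library gave 4159 to 4526 calls in all. Leaving out each library in turn, NFKB1 ranged from 0.10 to 0.21, CXCL1 from 0.26 to 0.77, LIF from 0.13 to 0.32, RELB from -0.53 to -0.35, TNFAIP3 from -0.29 to 0.04, CXCL8 from -0.74 to 0.05 and ICAM1 from 0.22 to 0.45. No value could be given for IL6.

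Libraries with the same number correlated at 0.0253, 0.0371 and 0.0298, and each correlated best with its own number, but nothing says that a number marks a shared day or culture. With a replicate block 5013 genes were called, 4731 of them also called without it, and ICAM1 (0.31, adjusted p = 0.0292) and LIF (0.24, adjusted p = 0.0483) passed the threshold, so that 2 of the 10 genes were called higher. Under that block 1 gene was lower among subunit, IkB and IKK genes, 2 among other NF-kB targets and 1 among receptors and signal carriers.

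Leaving out each library in turn, the genes of the set called higher ranged from 0 to 1 and lower from 2 to 3. Subunit, IkB and IKK genes ranged from 1 to 2 in each direction, adaptors from 2 to 5 higher, receptors upstream of NF-kB from 1 to 2 higher, other NF-kB targets from 2 to 4 lower, and receptors and signal carriers from 1 to 2 lower. Without a filter on low genes 1 gene was higher among subunit, IkB and IKK genes, 3 among adaptors and 1 among upstream receptors, and 1 was lower among receptors and signal carriers. The Wald test of DESeq2 called 3 adaptors higher and 1 receptor or signal carrier lower, and limma on log2(FPKM + 1) and log2(FPKM + 0.1) called 1 such gene lower.

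At an adjusted p under 0.01 the calls were 3035, with 1665 higher and 1370 lower. Subunit, IkB and IKK genes then had 1 higher and 1 lower, adaptors 0 and 5, upstream receptors 1 higher, other targets 5 higher and 2 lower, receptors and signal carriers 3 and 1, and AU-rich element factors 1 and 1. All other recomputed values, 422 of 481, kept their direction and side of the threshold or stayed within 1.5 times the count. The cause of the changes was not tested. Depth limits CXCL8 and IL6 most, with 69 and 1 counts in all.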
